A study of Homo sapiens with 10 samples.

Results

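The molecular chaperones described here are the protein-coding genes whose symbols start with HSPA, HSPB, HSPH, HSPD, HSPE, HSP90, DNAJA, DNAJB or DNAJC, together with the 8 CCT genes TCP1, CCT2, CCT3, CCT4, CCT5, CCT6A, CCT7 and CCT8. The rule used symbols and gene type alone and no measured value, but it was set with earlier results of these data known. It gave 82 genes of the 55889 gene IDs in the data, and 59 of them had enough signal to be tested, among 10297 tested genes in all. The prefixes also take in HSPBP1 and HSPBAP1, which bind heat shock proteins and are not chaperones of these families, and the readthrough genes DNAJC25-GNG10 and HSPB2-C11orf52. These 4 genes are counted as members of a group called other.

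Chaperones bind proteins that are unfolded or newly made and help them to fold, to reassemble or to be degraded. HSP70 proteins bind short hydrophobic stretches in a cycle driven by ATP, J-domain proteins of the DNAJ families bring clients to HSP70 and stimulate its ATPase, and HSP110 proteins exchange its nucleotide. HSP90 acts later on kinases, steroid receptors and other clients, HSP60 with its lid HSP10 folds proteins inside a mitochondrial chamber, and the CCT ring folds actin and tubulin in the cytosol. Part of the families is constitutive, and part is induced by heat shock factor 1 when unfolded proteins build up.

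Cells of KOPT-K1, a line derived from human T-cell acute lymphoblastic leukaemia, had been exposed for 45 min to silvestrol at 25 nM or to the solvent DMSO. Silvestrol clamps and inhibits eIF4A, the helicase that unwinds mRNA leaders during initiation. Each treatment was represented by 2 libraries of ribosome-protected fragments (footprints) and 3 libraries of total RNA, so 10 libraries come from a single line with no untreated control beyond DMSO. Values are RPKM, reads scaled to gene length and to library size, a relative unit in which a loss of translation common to all genes would not appear. The labels do not state separate cultures, so the p-values below reflect differences between libraries that may be technical replicates. A rough estimate put the footprint libraries at 1.66 to 2.38 M reads and the RNA libraries at 126.6 to 216.7 M. Replicates of the tested members were farther apart in footprints (median SD on the log2 scale 0.14 with DMSO, 0.20 with silvestrol) than in RNA (0.033 and 0.050). All 8 T-cell markers examined had a mean RNA level of at least 1 RPKM (3.61 to 674), and the 11 markers of B cells, myeloid cells, erythroid cells and stroma reached at most 0.111 RPKM. The libraries are bulk samples, in which fewer expressing cells and less RNA per cell cannot be told apart.

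Heat shock factor 1 binds heat shock elements, alternating GAA and TTC units. The promoter sequences that hold a perfect element of 3 units are shown, because these genes differ widely in their RNA levels here. The search looked for GAA, 2 bases of any kind, TTC, 2 bases of any kind and GAA, and for its reverse complement, in the 250 bases before each annotated start (RefSeq, GRCh38.p14). Of the 73 members with a window in the table, 6 held an element in at least 1 of their windows (8.22%), against 79 of 15842 protein-coding genes (0.499%). A match is a match of letters and not a shown binding site, and imperfect or distant elements were not searched. Each stretch is read 5′ to 3′ on the strand of the gene, with the element in capitals. The HSPA6 stretch lies at chr1:161524458-161524486 on the plus strand, and the DNAJB6 stretch at chr7:157336865-157336893 on the plus strand. The HSP90AB1 stretches lie at chr6:44247770-44247798 and chr6:44247823-44247851 on the plus strand. HSP90AA1 has its stretch at chr14:102087112-102087140 and HSPD1 at chr2:197500062-197500090, both on the minus strand. The HSPA8 stretches lie at chr11:123062346-123062374 and chr11:123062171-123062199 on the minus strand. The HSPA6, DNAJB6 and HSP90AB1 stretches overlap no exon annotated for a member in GENCODE 29, while those of HSP90AA1, HSPA8 and HSPD1 overlap an exon of at least 1 annotated transcript.
HSPA6: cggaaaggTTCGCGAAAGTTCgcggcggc
DNAJB6: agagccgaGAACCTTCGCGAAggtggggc
HSP90AB1, farther from the start: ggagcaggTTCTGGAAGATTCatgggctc
HSP90AB1, nearer to the start: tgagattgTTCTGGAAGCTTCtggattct
HSP90AA1: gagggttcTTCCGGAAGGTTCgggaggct
HSPA8, farther from the start: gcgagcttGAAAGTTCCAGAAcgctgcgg
HSPA8, nearer to the start: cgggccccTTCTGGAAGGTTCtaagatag
HSPD1, with 2 overlapping elements: gcattTTCTGGAAAGTTCTGGAAccgagc

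These 6 genes differed widely in their RNA levels. HSP90AB1 had a mean of 670 ± 9.6 RPKM (SD, n = 3) in DMSO, HSP90AA1 536 ± 11 RPKM, HSPA8 459 ± 8.5 RPKM, HSPD1 208 ± 4.4 RPKM and DNAJB6 15.2 ± 0.20 RPKM. HSPA6, a strictly stress-induced HSP70, had RNA values of 0.0587, 0.0785 and 0.0659 RPKM in DMSO and 0.0776, 0.0403 and 0.02 RPKM in silvestrol, and no footprint in any library. A perfect element in the window was thus present in the 3 most abundant members and in a gene close to 0.

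None of the 59 tested chaperone genes was called in RNA, in footprints or in translational efficiency after 45 min of silvestrol. Translational efficiency is the change in footprints beyond the change in RNA, and a call needed an adjusted p under 0.05 (limma, Benjamini-Hochberg over all tested genes). Over all 10297 genes, 0.282% were called in RNA, 0.0486% in footprints and 0.107% in translational efficiency, so a count of 0 among 59 genes is near the background. At an unadjusted p under 0.05, 1 member passed in RNA (1.69%, against 9.23% of all tested genes), 5 in footprints (8.47% against 6.98%) and 4 in translational efficiency (6.78% against 7.38%).

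The RNA result is narrow and the footprint result is wide. The members' RNA changes ran from -0.11 to 0.12 on the log2(RPKM + 0.5) scale with a median of 0.0018, and the median over all tested genes was 0.0028. Every member's 95% interval for the RNA change lay between -0.24 and 0.29. The changes in translational efficiency ran from -1.07 to 0.70 with a median of -0.017, against -0.078 over all tested genes. The distance from the estimate to either end of the 95% interval had a median of 0.55 and ranged from 0.33 to 1.57. A change smaller than its own distance could not be told from 0, even before adjustment. The adjustment over all tested genes asks for more, and DNAJC1 at -1.07 was not called (limma adjusted p = 0.344). The scale understates changes of genes with low values.

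**Figure D1:**
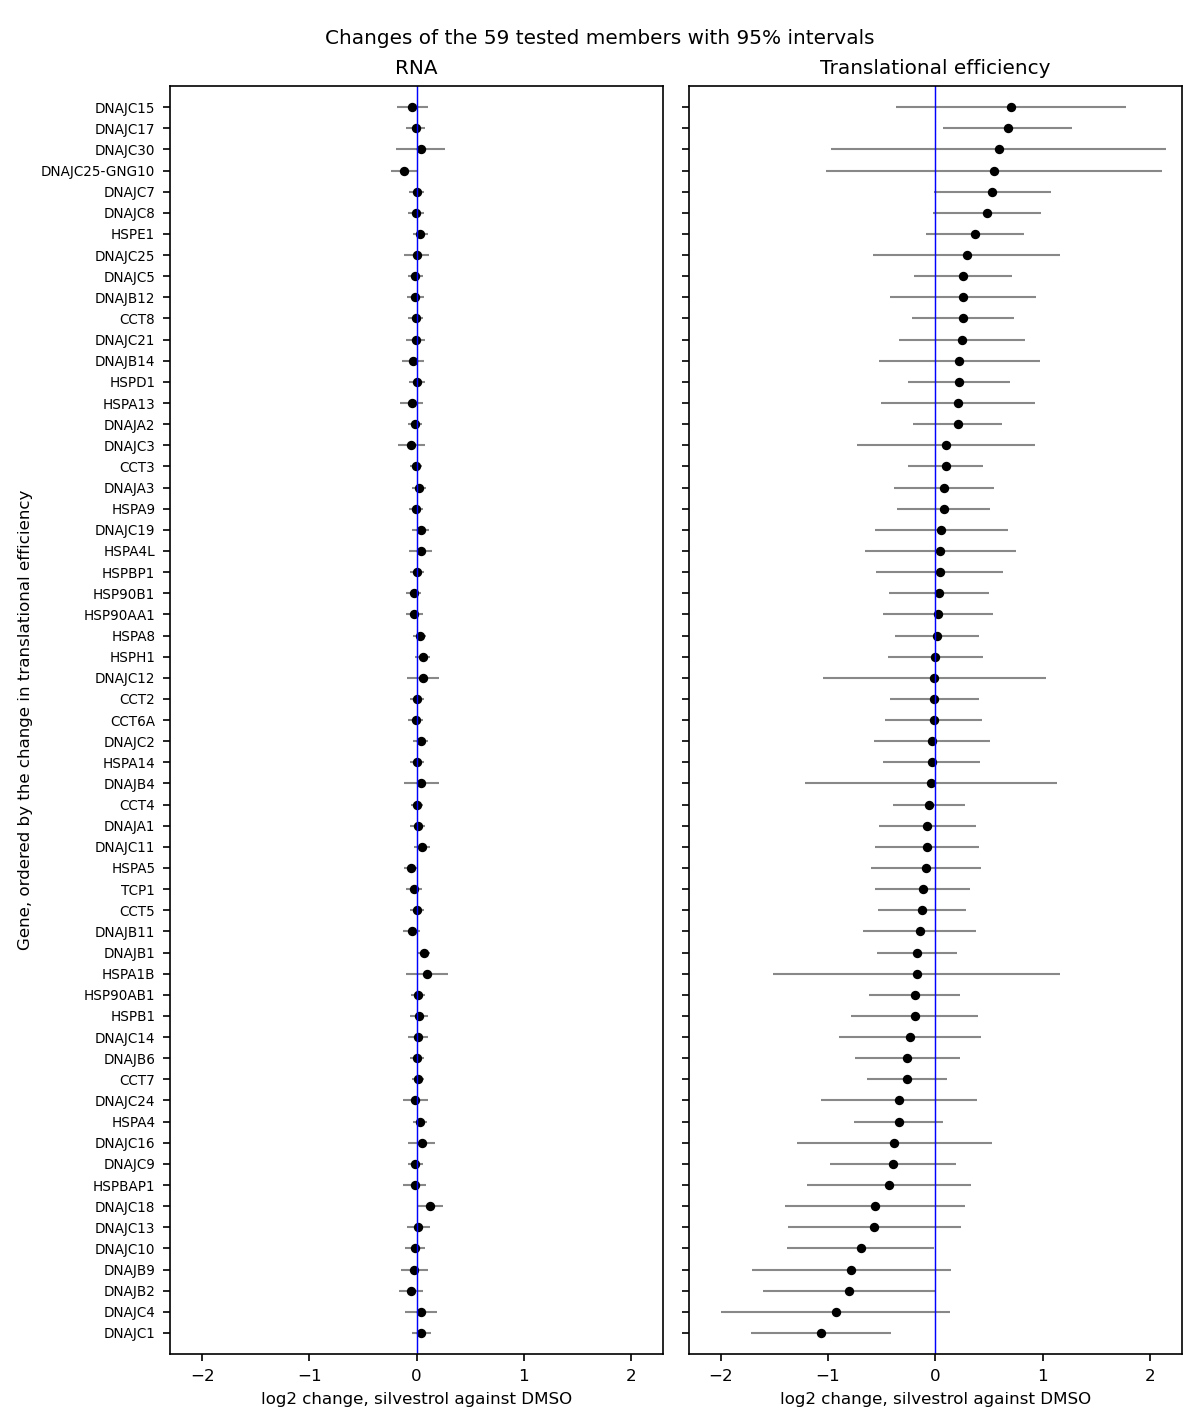
Log2 change from DMSO to silvestrol for each of the 59 tested members, in RNA (left) and in translational efficiency (right), with points for the fitted change and lines for its 95% interval. The RNA intervals stay between -0.24 and 0.29, and the intervals for translational efficiency reach up to 1.57 to either side of the estimate.

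Groups that do not overlap were counted too. In RNA, all 3 silvestrol values lay above all 3 DMSO values in 4 members (DNAJA3, DNAJB1, DNAJC11 and DNAJC18, 6.78%, against 8.97% of all tested genes) and below them in 0 members (3.99% of all genes). In footprints, both silvestrol values lay below both DMSO values in 17 members (28.8%, against 25.2% of all tested genes) and above them in 10 (16.9% against 13.1%). The members' shares were near the shares of all genes in 3 of these counts, and lower in the count of falls in RNA.

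The heat-inducible members are the genes by which a heat shock response would be recognised. Of 13 such genes 11 were tested, and none was called in any comparison. Their RNA change was above 0 in 10 genes and below 0 in 1, beside 5403 above and 4893 below over all tested genes. The median of the list was 0.032 on the log2 scale beside 0.0028 for all tested genes, and this difference was not tested. After median scaling these medians were 0.019 and -0.010, and after TMM scaling (trimmed mean of M values) 0.026 and -0.0033. HSPA1A and HSPA1B, the near-identical stress HSP70 genes of the cytosol, were low in both treatments. HSPA1B RNA was 2.42, 2.71 and 2.28 RPKM in DMSO and 3.1, 2.61 and 2.35 RPKM in silvestrol, and the treatments overlapped. HSPA1A RNA was 0.221, 0.22 and 0.279 RPKM in DMSO and 0.273, 0.272 and 0.204 RPKM in silvestrol, and its footprints were listed at 0 in all 4 libraries. Of the coding 30-base windows of HSPA1A 95.8% also occur in another gene, and of HSPA1B 97.4%. Reads of 30 bases from their coding parts can therefore not be cleanly assigned, and the untranslated parts were not examined.

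DNAJB1, the J-domain partner of inducible HSP70, had the smallest unadjusted RNA p of the members. Its RNA was 35.7, 35.9 and 36.1 RPKM in DMSO and 37.8, 37.7 and 37.3 RPKM in silvestrol. The treatments did not overlap, but the change was 0.066 on the log2 scale (95% interval 0.0078 to 0.12; limma adjusted p = 0.448). Its footprints were 18.8 and 16.4 RPKM in DMSO and 16.5 and 16.1 RPKM in silvestrol, and these overlapped. HSPH1, the inducible HSP110, had RNA values of 66.3, 65.1 and 66.6 RPKM in DMSO and 66.1, 71.2 and 68.8 RPKM in silvestrol, with a log2 change of 0.057 (95% interval -0.014 to 0.13). DNAJA1, a cytosolic J-domain protein, had 138, 132 and 136 RPKM in DMSO and 134, 142 and 133 RPKM in silvestrol. DNAJB4 was low, with a mean RNA level of 1.59 ± 0.16 RPKM (SD, n = 3) in DMSO and 1.66 ± 0.17 RPKM in silvestrol. HSPA4L, a further HSP110 gene, had 2.94 ± 0.045 RPKM and 3.04 ± 0.18 RPKM.

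**Figure D2:**
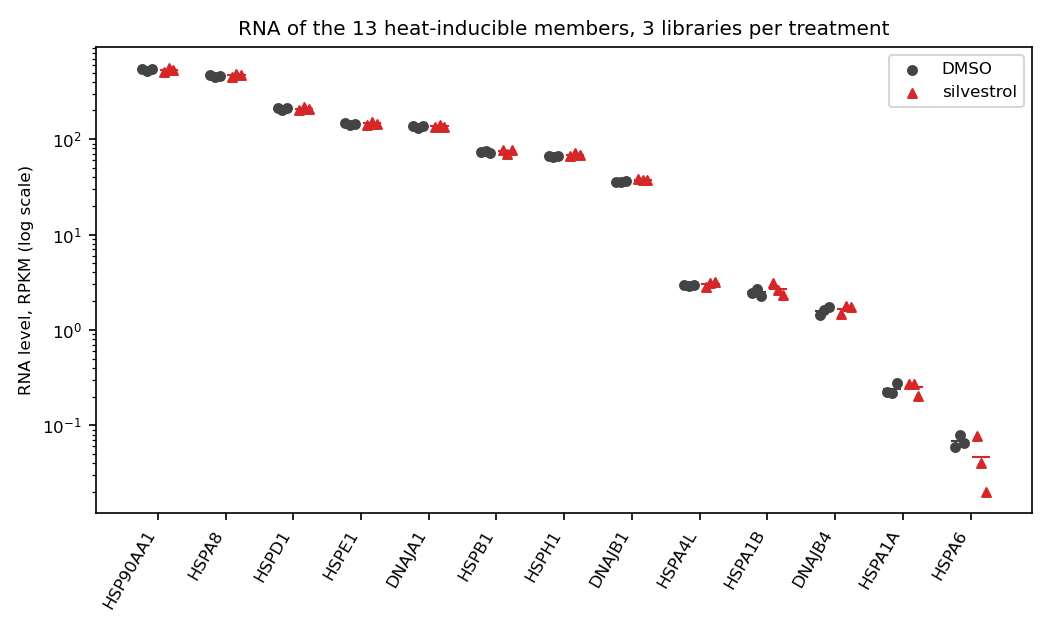
RNA level in RPKM (log scale) of the 13 heat-inducible members in each of 3 DMSO libraries (circles) and 3 silvestrol libraries (triangles), with lines at the group means. HSPA1A and HSPA6 lie below 1 RPKM in both treatments, and HSP90AA1 and HSPA8, which is also on the constitutive list, lie above 400 RPKM.

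The HSP90 genes held the most RNA of the families. HSP90AB1, the constitutive cytosolic form, had RNA values of 679, 660 and 672 RPKM in DMSO and 647, 695 and 683 RPKM in silvestrol. HSP90AA1, the inducible cytosolic form, had 544, 523 and 540 RPKM in DMSO and 501, 555 and 529 RPKM in silvestrol. Both genes overlapped between the treatments, and the silvestrol libraries were spread more widely around the same level. HSP90AB1 footprints were 89.0 and 80.3 RPKM in DMSO and 74.2 and 74.7 RPKM in silvestrol, lower in both silvestrol libraries, with a log2 change in translational efficiency of -0.19 (SE 0.20, adjusted p = 0.902). HSP90AA1 footprints were 77.8 and 84.2 RPKM in DMSO and 83.0 and 79.4 RPKM in silvestrol, which overlapped. HSP90B1, the endoplasmic reticulum form, had a mean RNA level of 124 ± 3.5 RPKM (SD, n = 3) and footprints of 59.1 ± 2.8 RPKM (n = 2) in DMSO, and 121 ± 4.0 and 59.7 ± 7.2 RPKM in silvestrol.

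Among the HSP70 genes, HSPA8, the constitutive cytosolic form, led with RNA values of 467, 450 and 460 RPKM in DMSO and 453, 478 and 473 RPKM in silvestrol. Its footprints were 55.2 and 55.6 RPKM in DMSO and 58.3 and 56.1 RPKM in silvestrol, and the log2 change in translational efficiency was 0.018 (95% interval -0.37 to 0.41). HSPA9, the mitochondrial form, had 147 ± 2.3 RPKM of RNA (SD, n = 3) in DMSO and 146 ± 5.0 RPKM in silvestrol. HSPA5, the endoplasmic reticulum form known as BiP, had 40.9 ± 0.70 and 39.4 ± 1.2 RPKM. HSPA5 footprints were 33.6 and 27.7 RPKM in DMSO and 22.8 and 33.5 RPKM in silvestrol, and the treatments overlapped. HSPA14, a ribosome-associated HSP70, had RNA of 16.3 ± 0.25 RPKM in both treatments and footprints of 13.2 ± 2.1 RPKM (n = 2) in DMSO and 12.8 and 12.8 RPKM in silvestrol.

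HSPA4, a cytosolic HSP110 that serves as nucleotide exchange factor, had lower footprints in both silvestrol libraries. Its footprints were 64.0 and 65.0 RPKM in DMSO and 52.7 and 51.0 RPKM in silvestrol, and its RNA was 45.3, 44.0 and 45.0 RPKM against 44.3, 46.9 and 46.0 RPKM. The footprint groups did not overlap and the RNA groups did. The log2 change in translational efficiency was -0.34 (SE 0.19, 95% interval -0.76 to 0.071; limma adjusted p = 0.739). With 1 spread for footprints and RNA together instead of weights per assay, the adjusted p was 0.0229. Over the alternatives the change stayed between -0.37 and -0.26, with adjusted p from 0.0229 to 0.999.

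The chamber of the mitochondrion is built from HSPD1 (HSP60) and HSPE1 (HSP10). HSPE1 footprints were 27.4 and 30.7 RPKM in DMSO and 36.8 and 40.3 RPKM in silvestrol, higher in both silvestrol libraries, beside RNA of 146, 141 and 143 RPKM against 142, 153 and 145 RPKM. The log2 change in HSPE1 footprints was 0.40 (95% interval 0.051 to 0.75), and that in translational efficiency was 0.37 (SE 0.21, limma adjusted p = 0.746). HSPD1 footprints were 25.9 and 22.8 RPKM in DMSO and 27.5 and 29.5 RPKM in silvestrol, again without overlap, with a log2 change in translational efficiency of 0.22 (SE 0.22, adjusted p = 0.891). HSPD1 RNA was 210, 203 and 211 RPKM in DMSO and 200, 217 and 208 RPKM in silvestrol. Of the coding 30-base windows of HSPE1 96.8% also occur in another gene, so 30-base reads of its coding part cannot be cleanly assigned. That part is 15.5% of its exon length, and the rest was not examined. HSPD1 and HSPE1 both have many pseudogene copies, whose values are given further on.

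Small heat shock proteins hold unfolded proteins in soluble oligomers, and HSPB1 (HSP27) was the only one of 6 such genes that could be tested. HSPB1 RNA was 73.6, 75.3 and 71.2 RPKM in DMSO and 76.4, 70.2 and 76.8 RPKM in silvestrol. Its footprints were 51.3 and 49.7 RPKM in DMSO and 36.8 and 54.4 RPKM in silvestrol, and the groups overlapped in both assays.

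The J-domain proteins were the largest group, with 33 of 44 genes tested in DNAJA, DNAJB and DNAJC. DNAJC1, an endoplasmic reticulum J-domain protein that also binds ribosomes, had the lowest change in translational efficiency of all members. Its footprints were 13.9 and 9.63 RPKM in DMSO and 4.71 and 6.29 RPKM in silvestrol, while its RNA was 10.1, 9.58 and 9.76 RPKM against 10.2, 10.6 and 9.64 RPKM. Both silvestrol footprint values lay below both DMSO values, from an estimated 44.7 reads per library on average. The log2 change in translational efficiency was -1.07 (SE 0.30, 95% interval -1.72 to -0.41; limma adjusted p = 0.344), and with 1 spread for both assays the adjusted p was 0.0351. Over the alternatives the change stayed between -1.32 and -0.81, with adjusted p from 0.0351 to 0.837.

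DNAJC17, a nuclear J-domain protein with an RNA recognition motif, had higher footprints in both silvestrol libraries. Its footprints were 3.13 and 3.21 RPKM in DMSO and 4.78 and 5.93 RPKM in silvestrol, from an estimated 50.5 reads per library on average. Its RNA was 5.45, 5.28 and 5.26 RPKM against 5.5, 5.1 and 5.29 RPKM. The footprint groups did not overlap and the RNA groups did. The log2 change in translational efficiency was 0.68 (SE 0.28, 95% interval 0.075 to 1.28; limma adjusted p = 0.599), and the adjusted p with 1 spread was 0.0351, the lowest of a range up to 0.967 over the alternatives. DNAJC1, DNAJC17 and HSPA4 were the 3 members called in that alternative (5.08%), in which 5.29% of all tested genes were called, so the share is near the background. DNAJC1, DNAJC17, DNAJC10, DNAJB2, and further on DNAJC3, DNAJC15, HSPA13 and the pseudogenes, are named because of their values and after these were seen.

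DNAJC10, an endoplasmic reticulum J-domain protein with disulfide reductase activity, had footprints of 8.98 and 6.71 RPKM in DMSO and 5.56 and 3.73 RPKM in silvestrol. DNAJB2 had 2.62 and 2.76 RPKM in DMSO and 0.929 and 1.67 RPKM in silvestrol. Neither gene overlapped between treatments in footprints, and the log2 changes in translational efficiency were -0.70 for DNAJC10 (adjusted p = 0.672) and -0.80 for DNAJB2 (adjusted p = 0.675).

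None of the most abundant J-domain genes was called. DNAJC8, a protein found with splicing factors, had RNA of 82.1 ± 2.5 RPKM (SD, n = 3) in DMSO and 81.6 ± 2.6 RPKM in silvestrol, and footprints of 12.8 and 10.2 RPKM against 17.1 and 15.1 RPKM. DNAJC9, a histone chaperone, had RNA of 54.6 ± 1.1 and 54.1 ± 1.6 RPKM, and its footprints of 7.61 and 5.75 RPKM in DMSO and 6.48 and 3.63 RPKM in silvestrol overlapped. DNAJC2, a ribosome-associated factor, had RNA of 21.6 ± 0.67 and 22.1 ± 0.35 RPKM. DNAJC5, the vesicle protein CSP alpha, had RNA of 16.4 ± 0.10 and 16.3 ± 0.35 RPKM. Within DNAJA, DNAJA2 footprints were 29.3 and 27.2 RPKM in DMSO and 34.6 and 30.2 RPKM in silvestrol, and those of DNAJA3, the mitochondrial form, were 10.7 and 9.53 RPKM against 12.7 and 9.31 RPKM. Only DNAJA2 of this pair had groups that did not overlap, and its log2 change in translational efficiency was 0.21 (adjusted p = 0.875).

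Within DNAJB, DNAJB6, which keeps aggregation-prone proteins in solution, had RNA of 15.2 ± 0.20 RPKM (SD, n = 3) in both treatments. DNAJB6 footprints were 3.53 and 2.89 RPKM in DMSO and 2.75 and 2.43 RPKM in silvestrol. DNAJB11, an endoplasmic reticulum partner of BiP, had footprints of 19.4 and 21.0 RPKM in DMSO and 17.7 and 17.5 RPKM in silvestrol. The footprint groups of both genes did not overlap, with log2 changes in translational efficiency of -0.26 and -0.15 (adjusted p = 0.866 and 0.944). DNAJB12, a membrane-anchored J-domain protein of the endoplasmic reticulum, had footprints of 6.64 and 4.47 RPKM against 8.93 and 4.78 RPKM, which overlapped.

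By compartment, the 8 members on the list for the endoplasmic reticulum (HSPA5, HSP90B1, HSPA13, DNAJB9, DNAJB11, DNAJC1, DNAJC3 and DNAJC10) had a median log2 change in translational efficiency of -0.12, from -1.07 (DNAJC1) to 0.21 (HSPA13), with 5 values below 0 and 3 above. The lists used here need not be complete. DNAJB12, also of the endoplasmic reticulum, is not on its list and had 0.26. The 7 members on the mitochondrial list were HSPA9, HSPD1, HSPE1, DNAJA3, DNAJC11, DNAJC15 and DNAJC19. They had a median of 0.081, from -0.078 to 0.70 (DNAJC15), with 1 value below 0 and 6 above. Over all tested genes 6169 values lay below 0 and 4128 above. No gene of either list was called, and the difference between the lists was not tested. DNAJC15 footprints were 1.94 and 4.41 RPKM in DMSO and 4.17 and 5.95 RPKM in silvestrol, so this highest value of the members comes from replicates that overlap. The list of 4 constitutive genes of the cytosol (HSPA8, HSP90AB1, HSPA14 and the HSP110 gene HSPA4) had a median of -0.11. HSPA4 was the lowest of them at -0.34. HSPA8, which is constitutive and holds 2 matches of the element, stands on both this list and the heat-inducible list.

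The CCT ring is built from 8 different subunits that assemble into double rings in fixed order. All 8 were tested, and their RNA levels lay close together, from 108 ± 0.58 RPKM (CCT5, SD, n = 3) to 200.0 ± 2.0 RPKM (CCT3) in DMSO. The RNA changes after silvestrol ran from -0.024 to 0.016 on the log2 scale, with the treatments overlapping in all 8 genes. The median change of the 8 was -0.0011 in RNA and -0.038 in translational efficiency. The latter stood beside -0.078 for all tested genes, and both moved together with scaling, to 0.027 and -0.017 with median scaling and to 0.048 and 0.0026 with TMM scaling.

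Footprints of the CCT subunits fell into 2 levels that RNA did not show. CCT3 footprints were 239 and 215 RPKM in DMSO and 238 and 245 RPKM in silvestrol, CCT4 had 185 and 179 against 174 and 177 RPKM, and CCT2 had 166 and 161 against 168 and 158 RPKM. CCT7 completed this level with 170 and 153 RPKM in DMSO and 121 and 152 RPKM in silvestrol. The other 4 subunits had DMSO means of 64.1 ± 0.42 RPKM (CCT5, SD, n = 2), 56.2 ± 0.42 (TCP1), 55.9 ± 2.0 (CCT6A) and 54.6 ± 6.2 RPKM (CCT8). Each of the 4 higher subunits exceeded each of the 4 lower subunits in all 4 footprint libraries. CCT8 was the only subunit with higher footprints in both silvestrol libraries, 61.2 and 68.1 RPKM against 58.9 and 50.2 RPKM, with a log2 change in translational efficiency of 0.25 (95% interval -0.22 to 0.73; adjusted p = 0.866). CCT7 had the largest value in the other direction, -0.26 (95% interval -0.64 to 0.11; adjusted p = 0.796). CCT4, CCT5, CCT7 and TCP1 had footprints lower in both silvestrol libraries, which is 4 of 8 genes, against 25.2% of all tested genes.

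**Figure D3:**
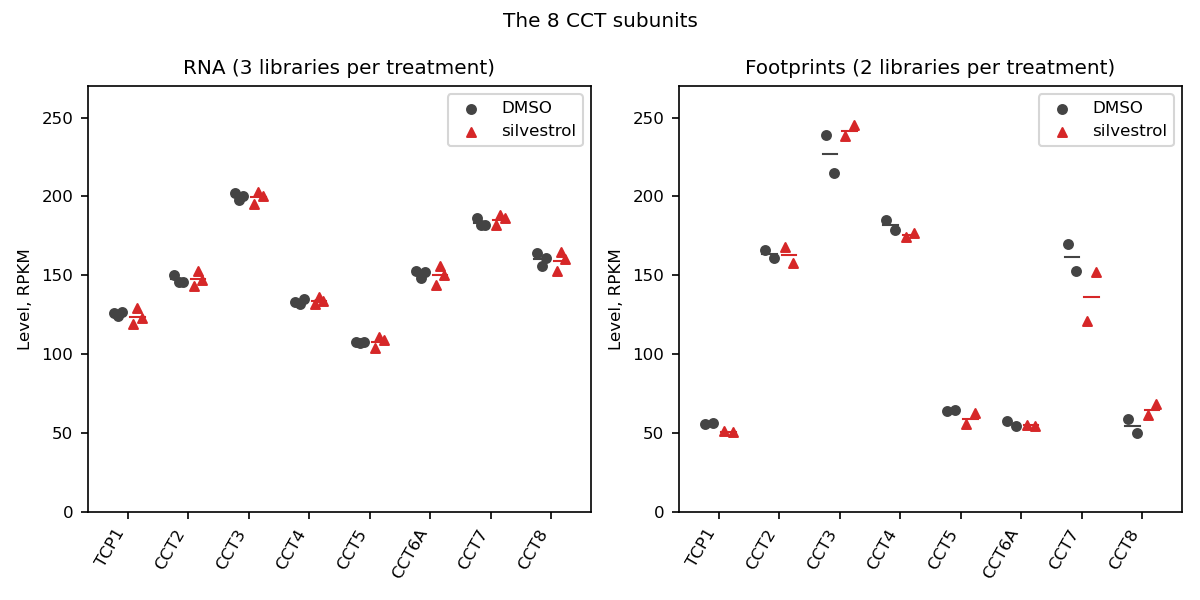
Levels in RPKM of the 8 CCT subunits in RNA (left, 3 libraries per treatment) and footprints (right, 2 libraries per treatment), with DMSO as circles, silvestrol as triangles and lines at the means. RNA levels form 1 band between about 104 and 203 RPKM, while footprints split into CCT2, CCT3, CCT4 and CCT7 above 120 RPKM and the other 4 subunits below 70 RPKM.

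The steady state of the families differed more between the assays than between the treatments. All 82 members together held 1.40% to 1.48% of the summed RPKM of protein-coding genes in the RNA libraries and 0.845% to 0.874% in the footprint libraries. HSP90 held 0.420% to 0.453% of RNA and 0.0956% to 0.0977% of footprints. The HSP70 genes held 0.220% to 0.231% and 0.0772% to 0.0868%. HSP60 and HSP10 held 0.113% to 0.122% of RNA and 0.0227% to 0.0305% of footprints. CCT held 0.388% to 0.409% and 0.412% to 0.424%, and HSP110 held 0.0373% to 0.0399% and 0.0571% to 0.0606%. The footprint share was therefore lower than the RNA share for HSP90, HSP70 and the mitochondrial chamber in all libraries, and higher for HSP110 and CCT.

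The ratio of footprint level to RNA level was computed per gene in DMSO. Both levels are scaled to a gene length that is not given, so the ratio is not a density of ribosomes on coding sequence. Spearman's rho between the ratio and the coding share of the exon length was 0.046 across members and -0.013 across coding genes. The tested members had a median ratio of 0.683, and the 9017 tested protein-coding genes 0.724, so the group as a whole was not far from other genes. The spread was wide, with outer deciles of 0.192 and 1.56 in members and of 0.342 and 1.37 in all coding genes. HSPD1 (ratio 0.117), HSPA8 (0.121), DNAJC9 (0.122), HSP90AB1 (0.126), DNAJC8 (0.140) and HSP90AA1 (0.151) were the lowest members, at the 1.49 to 2.23 percentile of tested coding genes. HSP90AB1 and HSP90AA1 stood at percentile 99.6 and 99.5 for RNA and at 95.8 and 95.5 for footprints. DNAJC3, an inhibitor of eIF2 alpha kinases in the endoplasmic reticulum, had the highest ratio, 3.18, at percentile 99.6. DNAJC3 footprints were 35.7 and 28.8 RPKM in DMSO and 38.7 and 28.6 RPKM in silvestrol, beside RNA of 10.5, 9.24 and 10.7 RPKM and 9.28, 9.87 and 10.2 RPKM.

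**Figure D4:**
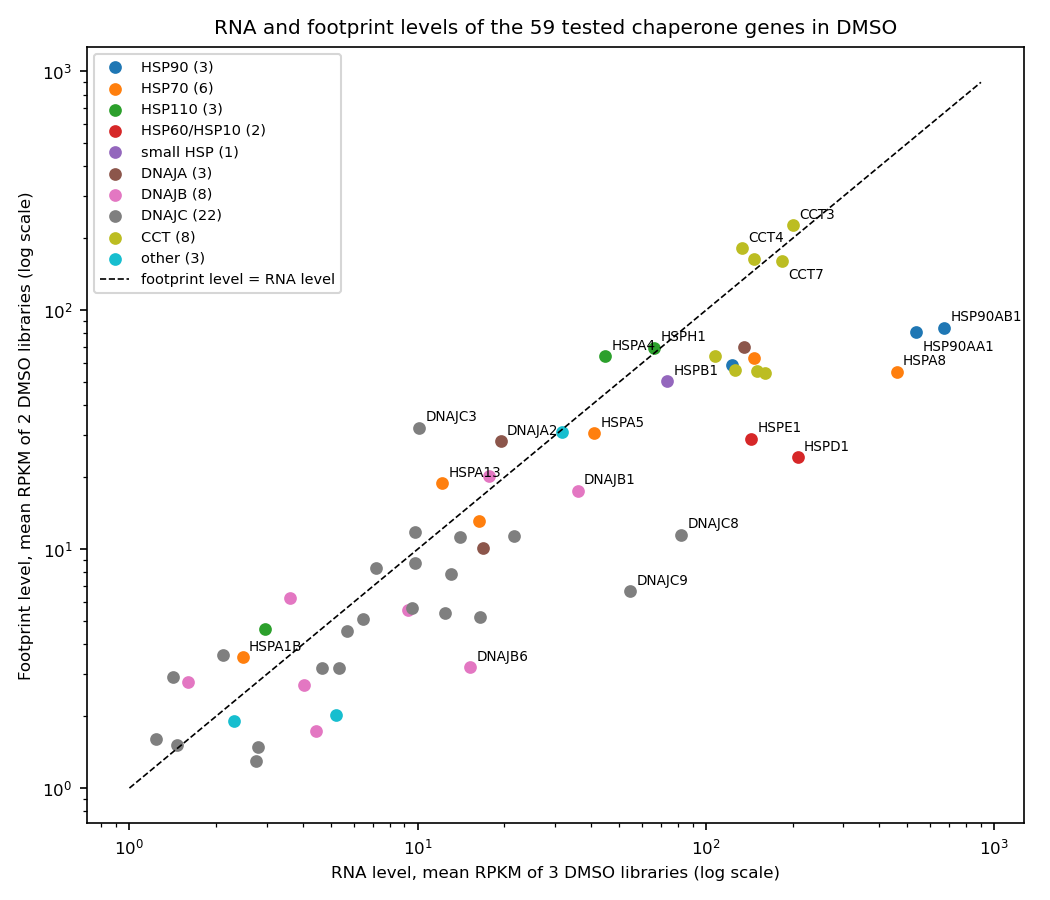
Mean footprint level of 2 DMSO libraries against mean RNA level of 3 DMSO libraries for the 59 tested members, in RPKM on log axes, coloured by family, with a dashed line where both are equal. HSP90AB1, HSP90AA1, HSPA8, HSPD1, DNAJC8 and DNAJC9 lie far below the line, and DNAJC3 lies above it.

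Low ratios went together with coding sequence that a gene shares with other genes. For each gene the share of its coding 30-base windows that also occur in a transcript of another gene was counted. Any other annotated gene counted, among them processed pseudogenes and readthrough genes at the same locus, such as DNAJC25-GNG10 beside DNAJC25. The 23 tested members with no shared window had a median ratio of 1.06 and the 10 members with more than 50% shared windows 0.177. The classes between them had medians of 0.941 (over 0% to 5%, 6 genes), 0.595 (over 5% to 20%, 8 genes) and 0.461 (over 20% to 50%, 12 genes). Over all tested coding genes the medians were 0.783, 0.711, 0.654, 0.456 and 0.535 from the lowest class to the highest, so the step to the last class was not seen there. Across the 59 members Spearman's rho between ratio and shared share was -0.619, and across the 9017 coding genes it was -0.243. The points share libraries and gene lengths. The ratio also fell with the RNA level across the members, with a rho of -0.485, beside -0.0736 across the 9017 coding genes.

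Inside the CCT ring, the 4 subunits with few or no shared windows had higher ratios than the 4 with more, while the order within each set of 4 did not follow the shared share. CCT2 and CCT3 had no shared window, CCT4 had 1.57% and CCT7 8.69%, with ratios of 1.11, 1.14, 1.37 and 0.881. CCT5 had 19.3%, CCT6A 29.2%, CCT8 29.97% and TCP1 36.2%, with ratios of 0.595, 0.370, 0.340 and 0.447. The 4 subunits of the lower footprint level are thus the 4 with the most shared windows. HSPD1 shared 68.4% of its windows, DNAJC9 57.8%, HSPA8 54.1%, HSP90AB1 51.2%, HSP90AA1 51.0% and DNAJC8 46.2%. Several members went the other way: HSPA1B had a ratio of 1.43 at 97.4% shared windows, DNAJC19 0.896 at 75.9%, DNAJC14 1.15 at 45.5% and DNAJB11 1.14 at 40.5%. The sources used here do not give how reads that match several places were handled, and its part in these ratios was not tested.

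**Figure D5:**
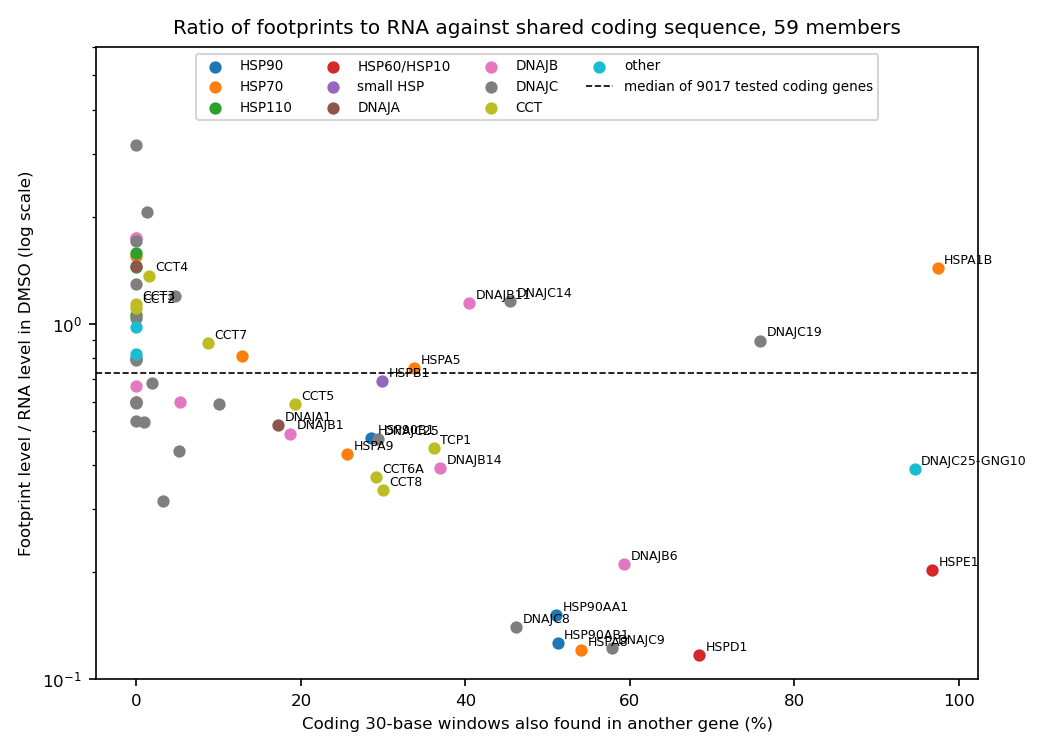
Ratio of footprint to RNA level in DMSO (log scale) against the percentage of a gene's coding 30-base windows found in another gene, for the 59 tested members, with a dashed line at the median of 9017 tested coding genes. The CCT subunits run from CCT2 and CCT3 at 0% (ratios 1.11 and 1.14) to TCP1 at 36.2% (ratio 0.447). Their highest ratio is that of CCT4 (1.37 at 1.57%) and their lowest that of CCT8 (0.340 at 29.97%). HSPA1B stands apart at the upper right.

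Some pseudogenes named after members carried higher footprint than RNA values, and others did not. The processed pseudogene HSPE1P2 had footprint values of 77.2 and 45.7 RPKM in DMSO and 70.8 and 43.8 RPKM in silvestrol, above those of its parent HSPE1, while its RNA was at most 1.04 RPKM in the 6 RNA libraries. All 23 HSPE1 pseudogenes together summed to a mean of 62.1 RPKM in footprints and 2.29 RPKM in RNA, beside 33.8 and 145 RPKM for HSPE1. CCT8P1 had footprint values of 14.8 and 14.3 RPKM in DMSO and 20.7 and 14.7 RPKM in silvestrol, with an RNA mean of 0.192 RPKM. CCT7P1 had a footprint mean of 8.43 RPKM with an RNA mean of 0.00963 RPKM. HSPA8P1 had 7.94 and 0.42 RPKM, and HSPA9P1 5.54 and 0.129 RPKM. Summed pseudogenes had 13.8 RPKM in footprints and 1.73 RPKM in RNA for HSP90AA1, and 12.9 and 1.43 RPKM for HSPA8. Those of HSP90AB1 had 3.93 and 1.17 RPKM, and those of DNAJC8 3.61 and 0.342 RPKM. Footprints of these parents were 81.1, 56.3, 79.55 and 13.8 RPKM. The 18 HSPD1 pseudogenes summed to 0.873 RPKM in footprints and 1.04 RPKM in RNA, beside 26.4 RPKM of footprints for HSPD1 itself. Those of HSPB1 summed to 0.193 RPKM in footprints and 1.17 RPKM in RNA, those of DNAJC19 to 0.628 and 0.964 RPKM, and those of DNAJB1, CCT3 and DNAJB5 to 0 in footprints. Whether reads were exchanged between these copies and the members was not tested, and values of members with near-identical copies are uncertain in both treatments.

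The annotated mRNA leaders were examined because silvestrol acts on eIF4A. The leader of the transcript with the longest coding sequence had a median length of 216 nt in the tested members and 176 nt in the 9017 tested coding genes. A run of 4 or more GGC or CGG triplets, a pattern able to form a G-quadruplex, was present in 0 of 59 members and in 394 of the 9017 coding genes (4.37%). Across members Spearman's rho between leader length and change in translational efficiency was -0.231, beside -0.158 across all coding genes, given as a description. DNAJC1 has an annotated leader of 291 nt, HSPA4 289 nt and DNAJC17 31 nt, but these genes were named for their values. Other members had the opposite order. DNAJC15 has 424 nt and a log2 change in translational efficiency of 0.70, HSPE1 443 nt and 0.37, and DNAJC4 97 nt and -0.93.

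Other genes of the pathway were read from a list of 45 co-chaperones, heat shock factors, prefoldin subunits and endoplasmic reticulum folding enzymes, of which 44 were tested. Over all tested genes 0.282% were called in RNA, 0.0486% in footprints and 0.107% in translational efficiency at a limma adjusted p under 0.05. Of these 44 genes, 0 were called in RNA, in footprints or in translational efficiency. Their median change was -0.0025 in RNA and -0.11 in translational efficiency, with 23 RNA values below 0 and 21 above. HSF1, the heat shock factor itself, had a log2 RNA change of -0.017 and BAG3, a co-chaperone induced with HSP70, 0.067 at an RNA level of 8.78 RPKM in DMSO. With 1 spread for both assays, 1 gene of the list, NACA, a subunit of the nascent chain complex, was called lower in translational efficiency, in a fit that called 5.29% of all tested genes.

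The 23 members that were not tested had low values in this line. Of these, 22 had a mean RNA level under 1 RPKM, and DNAJC27, at 2.15 RPKM, failed in footprints alone with a mean of 0.600 RPKM. DNAJC5G, HSPA12A and HSPB3 were listed at 0 in all 10 libraries, and 13 of the 23 were listed at 0 in all 4 footprint libraries. The others with little or no RNA were DNAJA4, DNAJB5, DNAJB7, DNAJB8, DNAJB13, DNAJC5B, DNAJC6, DNAJC22, DNAJC28, HSPA1A, HSPA1L, HSPA2, HSPA6, HSPA12B, HSPB2, HSPB2-C11orf52, HSPB6, HSPB7 and HSPB8. Among them HSPA12B was highest at 0.611 RPKM, and HSPA2, best known from the testis, had 0.254 RPKM of RNA.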

How the data were processed

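The authors deposited 1 table of RPKM values per library, per the file headers. The submitters' processing notes name STAR and hg19, with no version or step. Not given in the sources used here are the counting tool, its gene lengths and strand setting, and the treatment of multiply mapping reads. IDs were matched to symbols, GENCODE 29 (GRCh38, used by ID only) and RefSeq promoter windows. Genes with a mean of at least 1 RPKM in RNA and in footprints were tested on log2(RPKM + 0.5) with limma 3.58.1 in R 4.3.3 (lmFit, eBayes with trend and robust), two-sided, with Benjamini-Hochberg adjustment over all 10297 genes. RNA used 6 libraries and footprints 4. Translational efficiency was the interaction of assay and treatment over all 10 libraries with weights estimated per assay, since 1 spread for both assays, used in earlier work, understates the spread of footprints. The tests were tried on simulated data, with an outcome that is not given here.

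Library depth was estimated from low values, which are whole multiples of the value of 1 read: 90.2% to 92.9% lay within 0.05 of a whole read under 10.5 reads. The estimates rest on GENCODE 29 exon lengths and shift if the authors used others.

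The members and lists were chosen with earlier results of these data known. Named were the 4 members of each family with the highest RNA, every heat-inducible member and every CCT subunit. The shared windows, pseudogene sums, family shares, counts without overlap and leader runs were added after values had been seen. Alternatives were other pseudocounts, filters, scalings, normalizations and fits, and leaving out each library.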

Additional observations from a re-analysis of the deposited data

How the results depend on the processing

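The count of called members was 0 in RNA, footprints and translational efficiency under every alternative run but 1: with 1 spread for both assays, 3 members were called in translational efficiency. These were DNAJC1 (-1.07, adjusted p = 0.0351), DNAJC17 (0.68, adjusted p = 0.0351) and HSPA4 (-0.34, adjusted p = 0.0229), while 545 genes of the whole table were called in place of 11. Leaving out each library in turn gave counts from 0 to 0. The deviations of same-numbered libraries from their group means had r = 0.042, -0.33 and 0.15 in RNA and -0.033 in footprints. Libraries with different numbers had r from -0.32 to 0.30 in RNA. Deviations within a group of 2 or 3 libraries sum to 0, so these values cannot decide whether the numbers pair the libraries. With the replicate block 0 members were called in each comparison. Over all tested genes that block gave 8 lower and 49 higher calls in RNA, against 1 and 28 as reported. With median scaling the median RNA change was 0.0049 for the list of constitutive cytosolic genes (0.019 as deposited). For the CCT subunits it was -0.015 (-0.0011 as deposited). The cause of these shifts is the scaling, which moved the median RNA change of all tested genes from 0.0028 to -0.010. Of 39 named genes that were never called as reported, the sign of the change turned under at least 1 alternative in 24 in RNA, 19 in footprints and 20 in translational efficiency. Without any filter on low values 34844 genes were tested. Depth limits the footprint values: at an estimated 1.66 to 2.38 M reads per library, the mean per member fell as low as 5.75 reads (DNAJC25-GNG10).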
